A study of Mus musculus with 7 samples.

Results

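The comparison sets mouse embryos made with vitrified oocytes and melatonin against embryos made with fresh oocytes. It holds 4 of the 7 libraries of the series, chosen by their sample titles, 2 in each group. All embryos came from somatic cell nuclear transfer (SCNT): a cumulus cell, one of the somatic cells around the oocyte, was injected into an oocyte whose chromosomes had been removed, and the construct was activated with strontium. All were of the strain B6D2F1 with a wild type genotype, were labelled as 2-cell embryos, and carried injected mRNA of Kdm4a, a histone H3K9 demethylase. In the FOC+K group (2 libraries) the recipient oocytes were fresh. In the CROC+K+M group (2 libraries) the oocytes had been vitrified and warmed, and the embryos were exposed to 10 µM melatonin. The groups therefore differ in both the oocyte and melatonin, and the shares of the 2 cannot be told apart within this comparison. The remaining group, CROC+K (3 libraries, vitrified oocytes with no melatonin named), enters the fit for its spread and is quoted beside some values. Each library pooled 50 to 100 embryos, so less RNA per cell and fewer cells cannot be told apart. The labels speak of biological replicates and do not say which embryos, donors or days they share; the p-values measure the spread between these pools.

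Vitrification freezes an oocyte into a glass with high solute concentrations and very fast cooling, and is known to stress mitochondria, the spindle and the redox balance. Melatonin is an indole hormone that scavenges reactive oxygen and is added to embryo cultures for that reason. A mouse 2-cell embryo lives on mitochondria and mRNA inherited from the oocyte, clears much of that maternal mRNA, and starts its own transcription at this stage. Respiratory chain subunits are mostly encoded in the nucleus, so their mRNA has to be stored or newly made. Kdm4a mRNA is injected into SCNT embryos because H3K9 methylation carried in by the donor nucleus blocks that start.

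Values are FPKM, fragments scaled to transcript length and to the mapped fragments of the library. FPKM summed to 585039 and 552356 in FOC+K and to 1017995 and 726297 in CROC+K+M. In CROC+K the sums were 575457, 797689 and 814958. The first of these lay within the FOC+K range and the others within that of CROC+K+M. What sets these sums was not tested. Over the 7 libraries 10496 to 11518 genes reached an FPKM of 1. The low values of the table fall on steps that look like 1 fragment; if the libraries were not rescaled, these steps give relative depths of 1.0 to 1.56 over the libraries. The first CROC+K+M library, called melatonin library 1 here, stands apart. Over the tested genes its Pearson correlation with each of the others was 0.851 to 0.875, against 0.974 between the FOC+K libraries, while melatonin library 2 reached 0.950 and 0.957 with them. All 8 trophectoderm markers that were looked up had an FPKM of at least 1 in melatonin library 1, summing to 25547. In melatonin library 2 they summed to 9.04 and in FOC+K to 26.3 and 15.8. Of the 25547, Fabp3 made 24404, and 5 of the 8 markers also reached 1 in each FOC+K library. Inner cell mass markers summed to 60.1 in melatonin library 1, of which Pou5f1 made 39.3. Their sums were 40.7 in melatonin library 2 and 73.0 and 68.4 in FOC+K. These markers were not uniform. Nanog was at 3.98 in melatonin library 1, against 0.76 in library 2 and 0.53 and 0.57 in FOC+K. Fgf4 was at 0.80 in melatonin library 1, against 5.95 in library 2 and 4.13 and 2.45 in FOC+K. Cdx2, the transcription factor that marks the trophectoderm of the blastocyst, was at 6.97 in melatonin library 1 and is listed at 0 in the other 6. Each of the 7 libraries, that one included, held all 8 oocyte markers and 5 of 6 markers of the 2-cell stage at an FPKM of at least 1. The 2-cell label of melatonin library 1 and its trophectoderm markers are therefore at odds. The treatment protocol common to all samples names blastocysts as well. Changes of named genes and list medians are given with and without melatonin library 1, except for the genes at the ends of a list's range. Markers of fibroblasts summed to at most 0.093, and those of the cumulus donor cell to at most 1.77, with Amh and Ptx3 listed at 0 in all libraries.

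Kdm4a, the injected mRNA, stood at an FPKM of 2014 and 816 in FOC+K, against 2797 and 689 in the melatonin libraries 1 and 2. The groups overlapped, with a log2 change of 0.11 ± 1.16 (SE) and of -0.90 without melatonin library 1.

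None of the 12273 genes passed an adjusted p of 0.05 in limma (0.0% of those tested), with a smallest adjusted p of 0.739. Array weights and robust moderation gave 0 as well. Verbs of change are therefore avoided for single genes: values are set side by side. An unadjusted p under 0.05 was reached in limma by 792 genes (6.45%), of which 546 (4.45% of those tested) had the higher mean with melatonin and 246 (2.0%) the lower. Regardless of p, the mean was higher with melatonin in 52.9% of genes and lower in 47.1%. Without melatonin library 1 the numbers were 321 (2.62%) and 310 (2.53%). For 2610 genes (21.3%) both melatonin libraries lay above both FOC+K libraries, and for 2424 genes (19.8%) both lay below. The direction of these counts depends on scaling. With every library scaled to the same FPKM sum, 12.3% of the genes at an unadjusted p under 0.05 were higher, against 68.9% as deposited and the median of all genes moved from 0.04 to -0.44 on the log2 scale. After quantile normalization 43.3% were higher and the median of all genes was -0.08. With equal FPKM sums and without melatonin library 1 the median of all genes was -0.27. A list median below 0 under these scalings can therefore still lie above that of all genes. Medians relative to all genes are given for some of the lists.

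Genes of the mitochondrial respiratory chain and ATP synthase stood higher with melatonin than in fresh-oocyte embryos in every one of the 79 genes measured (all genes: 52.9%), and in 75 of them with equal FPKM sums. Their median log2 change was 1.75, beside 0.04 for all genes. Both melatonin libraries lay above both FOC+K libraries in 63 of the 79 (background 21.3%), and 45 had an unadjusted p under 0.05, all higher (background 4.45%). None passed the adjusted threshold. Without melatonin library 1 the median was 0.83, 71 of 79 were higher, and 27 had an unadjusted p under 0.05, again all higher (background 2.62%). The summed FPKM of the 79 genes was 13953 and 14733 in FOC+K, 85435 in melatonin library 1 and 25515 in melatonin library 2. CROC+K, which shares the FOC+K controls, had sums of 17108, 20220 and 19500 and a median of 0.14 against FOC+K.

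Complex I, the NADH dehydrogenase that feeds electrons into the chain, had a higher mean in 37 of 37 subunit genes, with a median of 1.91 and, without melatonin library 1, of 0.92 with 34 of 37 higher. The members ran from Ndufa9 at 0.42 to Ndufa3 at 3.69. Ndufa2, an accessory subunit, was at an FPKM of 185.2 and 176.2 in FOC+K, against 732.2 and 506.3 in the melatonin libraries. Its log2 change was 1.75 ± 0.32 (SE), and 1.48 without melatonin library 1. The CROC+K libraries lay between, at 197.3, 289.7 and 275.3. Ndufa11 was at 40.2 and 33.8 against 168.7 and 89.0 (1.71 ± 0.35, and 1.25 without melatonin library 1). Ndufa1 was at 74.5 and 102.3 against 811.7 and 224.4 (2.28 ± 0.55, and 1.35). In all 3 genes, picked as those of the list with the smallest p, the groups were apart. In Ndufa1 most of the height came from melatonin library 1.

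Complexes II to IV pass the electrons through cytochrome c to oxygen. All 25 of 25 genes had a higher mean (median 1.70), and all 25 did so without melatonin library 1 (median 0.71). They ran from Sdha, a succinate dehydrogenase subunit gene, at 0.63 to Uqcr11 of the cytochrome bc1 complex at 2.77. Cox7a2, a cytochrome c oxidase subunit gene, was at 430.9 and 456.3 in FOC+K, against 1757 and 1182 in the melatonin libraries, a change of 1.70 ± 0.33 (1.41 without melatonin library 1). Uqcr10 was at 312.1 and 243.1 against 3370 and 690.0 (2.46 ± 0.68, and 1.32). Cycs, the gene of cytochrome c, which carries electrons and also triggers caspase activation when released, was at 54.6 and 50.7 against 216.6 and 107.2 (1.52 ± 0.39, and 1.01). The CROC+K libraries had Cycs at 70.7, 104.3 and 94.95, between FOC+K and melatonin library 2.

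The ATP synthase list had 17 of 17 higher means (median 1.71), and 12 of 17 without melatonin library 1 (median 0.56). Atp5d ranked lowest there, at -1.86. Atp5g1, a subunit c gene, was at 851.0 and 724.0 in FOC+K, against 2417 and 1810 in the melatonin libraries (1.41 ± 0.32, and 1.20 without melatonin library 1). Atpif1, which encodes the inhibitor of ATP hydrolysis by the enzyme, was at 78.7 and 105.2 against 493.6 and 238.6 (1.90 ± 0.41, and 1.38). Atp5k was at 285.1 and 315.3 against 1745 and 780.8 (1.96 ± 0.45, and 1.38). The groups were apart in each of these 3 genes, which were picked as those of the list with the smallest p.

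These mRNAs are short, and short transcripts as a whole stood higher in the melatonin libraries. Genes with transcripts under 500 bases had a median log2 change of 0.42 (388 genes), those of 500 to 750 bases 0.22 (2219 genes) and those of 5000 bases or more -0.17 (260 genes). The same medians without melatonin library 1 were 0.38, 0.13 and -0.07. The median transcript length was 686.0 bases in complex I, 581.0 in complexes II to IV and 607.0 in ATP synthase, against 1288 over all genes. With a length trend removed from each library, an alternative added after the data were seen, the medians lay 1.70, 1.51 and 1.44 above that of all genes. With the length trend removed and melatonin library 1 left out they lay 0.68, 0.48 and 0.40 above it. With equal FPKM sums they lay 1.76, 1.54 and 1.55 above it, and without melatonin library 1 as well 0.84, 0.63 and 0.48.

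**Figure D1:**
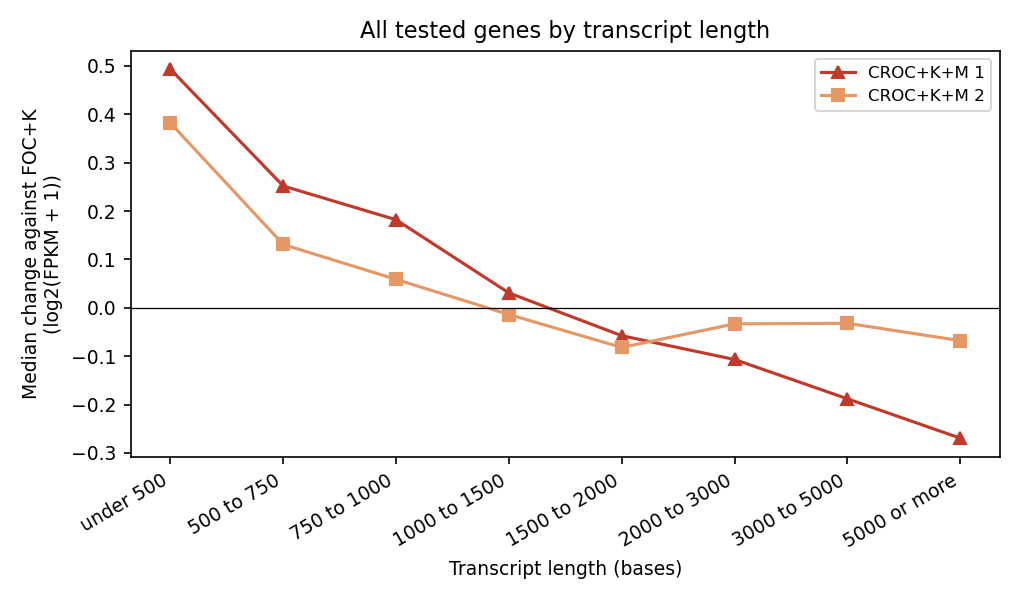
Median change against FOC+K (log2(FPKM + 1), vertical axis) of all tested genes with a known length, grouped by transcript length in bases (horizontal axis), for melatonin library 1 (triangles) and 2 (squares). Both lines fall from the shortest group, at 0.49 and 0.38, to the longest, at -0.27 and -0.07.

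Promoters were read because nuclear respiratory genes share known binding motifs in them. The motif of NRF1, a regulator of respiratory genes, was searched on both strands as GCGCA and GCGC with any base between, in the 300 bases around the start of each gene, from RefSeq's table on GRCm38.p6. It was found for 7 of 33 complex I genes with a promoter in that table (21.2%), 4 of 18 genes of complexes II to IV (22.2%) and 6 of 16 ATP synthase genes (37.5%). The share was 10.6% over the tested genes with a promoter (1047 of 9891) and 4.78% over all promoters of the table. Among the genes at an unadjusted p under 0.05 it was 12.9% of those higher and 7.07% of those lower. Of the 2 other motifs searched on both strands, that of GABPA (CCGGAAGT) was found for 1 of 33, 3 of 18 and 1 of 16 genes of the same lists, beside 8.41% of the tested genes and 4.0% of all promoters. That of YY1 (AAGATGGCG) was found for 5 of 33, 0 of 18 and 1 of 16, beside 3.22% and 1.49%. The shares of these 2 motifs lay on both sides of that of the tested genes, depending on the respiratory list. In cytosolic ribosomal protein genes, described below, the shares of NRF1, GABPA and YY1 were 6.56%, 19.7% and 4.92%. In mitochondrial ribosomal protein genes they were 17.9%, 16.4% and 11.9%. The motif that stood above the tested genes thus differed between lists. Of the 9 respiratory genes named above with their FPKM values, Ndufa11, Atp5k and Atpif1 had an NRF1 match, Ndufa1, Cox7a2, Cycs, Uqcr10 and Atp5g1 had none, and Ndufa2 was not matched to a promoter. The promoters of Ndufa11 (chr17:56717512-56717811, plus strand) and Atp5k (chr5:108434350-108434649, minus strand) are shown as examples with a match, in capitals, which starts 60 and 50 bases before the transcription start.
Ndufa11: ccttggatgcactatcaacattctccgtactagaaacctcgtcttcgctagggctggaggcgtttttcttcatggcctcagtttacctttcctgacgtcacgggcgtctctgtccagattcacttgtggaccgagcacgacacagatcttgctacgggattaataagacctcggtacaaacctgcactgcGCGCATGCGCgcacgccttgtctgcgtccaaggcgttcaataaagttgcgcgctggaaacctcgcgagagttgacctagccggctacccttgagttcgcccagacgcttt
Atp5k: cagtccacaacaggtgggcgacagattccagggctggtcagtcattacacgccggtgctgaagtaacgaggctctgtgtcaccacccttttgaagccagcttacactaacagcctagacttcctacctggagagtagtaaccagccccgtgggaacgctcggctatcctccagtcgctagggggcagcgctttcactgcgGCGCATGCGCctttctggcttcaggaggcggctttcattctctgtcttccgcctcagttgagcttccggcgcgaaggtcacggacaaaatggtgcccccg
Both matches read GCGCATGCGC. A match is a description of the letters and says nothing of binding in these embryos.

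Genes of both ribosomes and of mitochondrial import also stood higher with melatonin, with smaller medians in melatonin library 2 than in library 1. Cytosolic ribosomal protein genes had a higher mean in 78 of 79 (median 1.09), with 30 at an unadjusted p under 0.05, all higher (background 4.45%). Without melatonin library 1 the median was 0.36, with 69 of 79 higher and 8 higher at an unadjusted p under 0.05 (background 2.62%). CROC+K, against the same controls, had a median of 0.32. With equal FPKM sums and without melatonin library 1 the median was 0.01, which lay 0.29 above that of all genes. Rpl38 was at an FPKM of 233.2 and 281.2 in FOC+K, against 1945 and 749.5 in the melatonin libraries (2.23 ± 0.46, and 1.55 without melatonin library 1). Rps23 was at 388.5 and 372.0 against 1689 and 789.1 (1.60 ± 0.40, and 1.05). Fresh-oocyte values of Rpl26 are 0.0016 and 0.0012, and those of the melatonin libraries are 50.3 and 27.3; it has processed copies that can take its fragments, and CROC+K ranged from 0.0015 to 18.6.

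Mitochondrial ribosomal protein genes had a higher mean in 68 of 76 (median 0.74, and 0.27 with 49 of 76 higher without melatonin library 1). With equal FPKM sums and without that library the median was -0.067, which lay 0.21 above that of all genes. Mrps14 was near level in the melatonin libraries, at 185.6 and 179.7 in FOC+K against 390.5 and 401.1 (1.11 ± 0.25, and 1.13). Mrpl42 was at 89.1 and 108.6 against 903.6 and 243.8 (2.24 ± 0.56, and 1.30), and Mrpl53 at 89.0 and 101.6 against 433.1 and 205.2 (1.64 ± 0.41, and 1.10). Of the genes of protein import into mitochondria, 24 of 26 had a higher mean (median 0.79) and 22 of 26 without melatonin library 1 (median 0.45). With equal FPKM sums these were 18 of 26 (median 0.21) and 16 of 26 (median 0.13). In that list 7 of 26 had an unadjusted p under 0.05 without melatonin library 1, all higher, beside 2.62% of all genes. Tomm7, a subunit of the outer membrane translocase, was at 75.6 and 65.8 against 413.4 and 172.8 (1.91 ± 0.41, and 1.28). Timm10, an intermembrane chaperone gene, was at 52.6 and 45.2 against 125.1 and 115.5 (1.28 ± 0.34, and 1.23), and Timm8a1, its relative, at 20.3 and 14.0 against 35.5 and 39.1 (1.10 ± 0.38, and 1.17). Timm10 and Timm8a1 were close to equal in the 2 melatonin libraries.

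**Figure D2:**
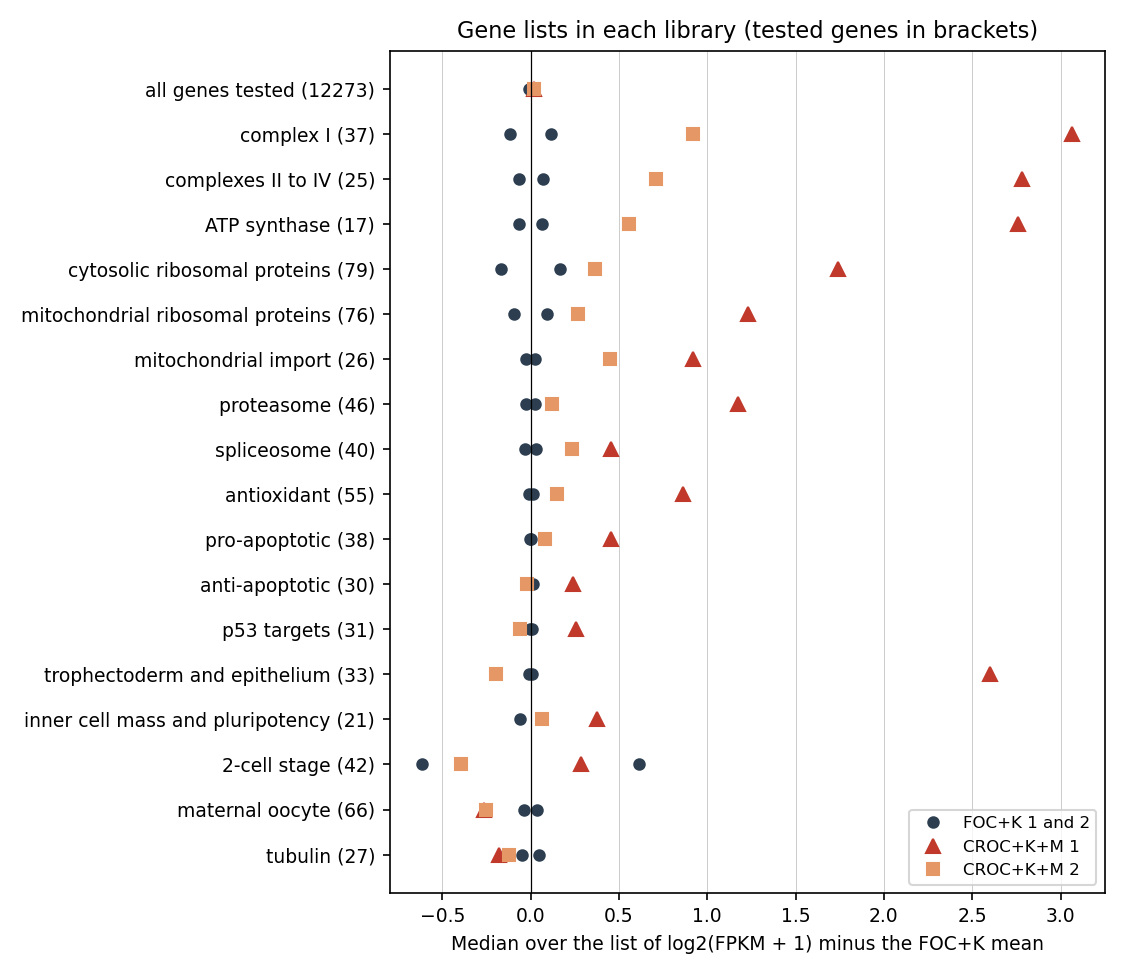
Median over each gene list of log2(FPKM + 1) minus the FOC+K mean (horizontal axis) in FOC+K libraries 1 and 2 (circles) and melatonin libraries 1 (triangles) and 2 (squares), 1 row per list with the number of tested genes. In complex I library 1 lies at 3.07 and library 2 at 0.92; in the trophectoderm list library 1 lies at 2.60 and library 2 at -0.20.

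Among the other housekeeping machineries, the proteasome list had a higher mean in 43 of 46 genes (median 0.66). In that list 5 of 46 had an unadjusted p under 0.05 in limma, all higher (background 4.45%). Without melatonin library 1, however, the median was 0.12, with 29 of 46 higher. With equal FPKM sums and without that library the median was -0.21, beside -0.27 for all genes. Psmd14, a deubiquitinase subunit gene of the cap, was at 43.5 and 48.6 in FOC+K against 231.2 and 77.5 (1.52 ± 0.52, and 0.74 without melatonin library 1). Psmb2, a core subunit gene, was at 295.0 and 335.3 against 1071 and 495.3 (1.21 ± 0.43, and 0.65). Spliceosome genes had a higher mean in 29 of 40 (median 0.44, and 0.24 without melatonin library 1). With equal FPKM sums their median was -0.071, which lay 0.37 above that of all genes. Snrpd2, an Sm protein gene, was at 199.8 and 215.1 against 532.6 and 456.5 (1.25 ± 0.30, and 1.13), and Snrpd1 at 233.6 and 273.6 against 457.7 and 439.0 (0.82 ± 0.27, and 0.79). Translation initiation factors had a median of 0.32 (27 of 40 higher) and of 0.052 without melatonin library 1 (22 of 40), and of -0.27 with equal FPKM sums and -0.11 after quantile normalization. Eif3b was at 15.8 and 17.1 against 27.8 and 30.6 (0.79 ± 0.30, and 0.86). Nucleolar and RNA polymerase I genes had a median of 0.12 with all libraries and of 0.33 without melatonin library 1 (30 of 40 higher), and of -0.42 with equal FPKM sums, -0.15 after quantile normalization and -0.0036 with the length trend removed. Nop10, a small nucleolar protein gene, was at 238.4 and 257.7 against 623.6 and 563.1 (1.25 ± 0.32, and 1.18), Nop56 was at 84.9 and 59.1 against 129.5 and 137.2 (0.90 ± 0.34, and 0.94), and Nop58 at 179.4 and 112.4 against 81.2 and 94.9 (-0.69 ± 0.32, and -0.58).

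Glycolysis, which breaks down glucose in the cytosol, was divided. Of 18 genes 10 had a higher mean (median 0.30) and 7 without melatonin library 1 (median -0.042), and with equal FPKM sums the median was -0.26. Pgam1, phosphoglycerate mutase, was at 22.2 and 16.8 in FOC+K, against 9.19 and 9.93 in the melatonin libraries (-0.95 ± 0.40, and -0.89 without melatonin library 1). Slc2a1, the glucose transporter GLUT1, was at 6.71 and 4.87 against 1.19 and 2.70 (-1.24 ± 0.62, and -0.86). Aldoa, an aldolase gene, was at 92.0 and 81.6 against 197.3 and 106.5 (0.74 ± 0.41, and 0.29).

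The 3 named genes with the smallest p were higher in both melatonin libraries than in all 5 others. Snhg20, a small nucleolar RNA host gene, was at an FPKM of 42.4 and 47.9 in FOC+K, with CROC+K at 36.1, 30.5 and 33.7, against 199.6 and 162.2 in the melatonin libraries. Its log2 change was 1.97 ± 0.27 (SE; adjusted p = 0.739 in limma), and 1.82 without melatonin library 1. H2afj, which encodes the histone variant H2A.J, was at 24.8 and 27.4 in FOC+K, with CROC+K at 24.2, 42.4 and 40.7, against 129.2 and 97.0 with melatonin (2.06 ± 0.36, and 1.86). Gtsf1l, a relative of the piRNA pathway gene Gtsf1, was at 7.68 and 5.58 in FOC+K, with CROC+K at 3.78, 1.77 and 1.27, against 44.2 and 38.7 with melatonin (2.49 ± 0.43, and 2.39). CROC+K lay below FOC+K in Snhg20 and Gtsf1l, and the melatonin libraries above both groups.

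Further genes of this kind carried different functions. Tma7, a translation machinery associated gene, was at 164.2 and 194.1 in FOC+K, against 1022 and 675.7 with melatonin (2.21 ± 0.40, and 1.91 without melatonin library 1). Atox1, a copper chaperone gene, was at 408.5 and 477.1 against 1829 and 1152 (1.72 ± 0.31, and 1.38), and CROC+K lay between at 665.3, 710.6 and 678.8. Tcf15, a basic helix-loop-helix transcription factor gene, was at 2.18 and 6.8 against 36.8 and 24.5 (2.64 ± 0.51, and 2.36). Apoc1, an apolipoprotein gene, was at 9.60 and 15.9 against 447.0 and 70.5 (3.74 ± 0.77, and 2.42), with the greater part in melatonin library 1. Among histone variants, H2afz was at 749.5 and 658.0 in FOC+K, against 1727 and 1517 with melatonin (1.20 ± 0.44, and 1.11), and H2afv at 154.7 and 100.3 against 197.3 and 310.4 (0.98 ± 0.48, and 1.31). CROC+K overlapped with the melatonin libraries for H2afv, at up to 290.6, and reached 1514 for H2afz.

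**Figure D3:**
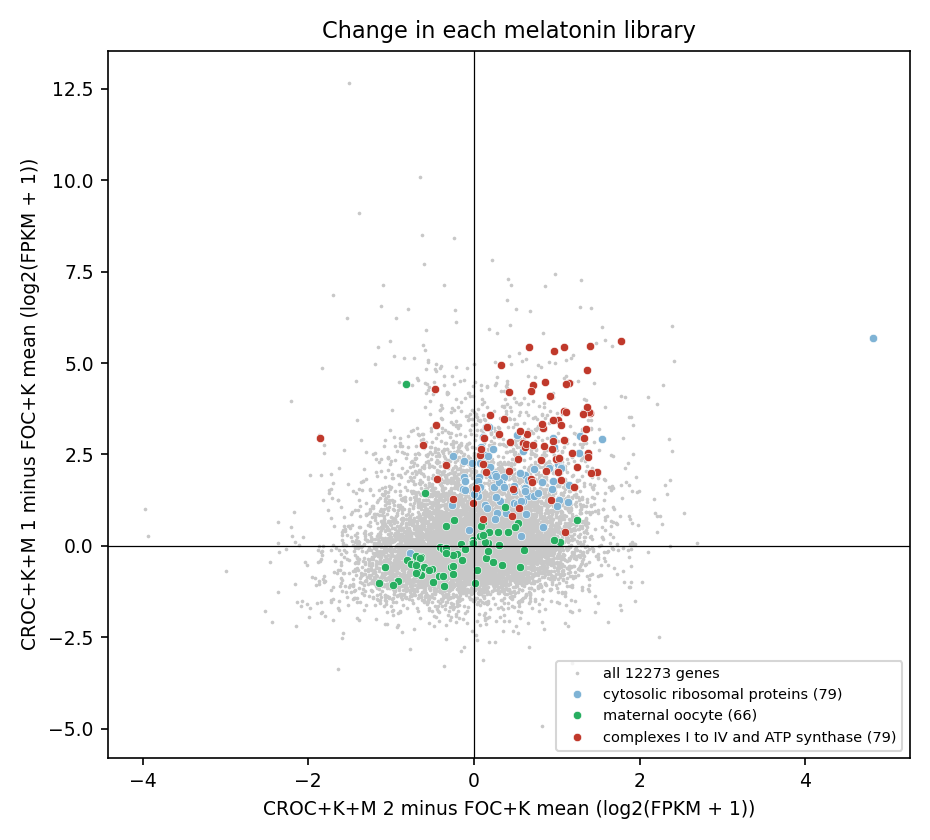
Change of each of the 12273 tested genes against the FOC+K mean (log2(FPKM + 1)) in melatonin library 2 (horizontal axis) and library 1 (vertical axis), with both libraries set against the same controls; 79 respiratory chain and ATP synthase genes, 79 cytosolic ribosomal protein genes and 66 maternal oocyte genes are coloured. The respiratory genes have medians of 0.83 and 2.85 in libraries 2 and 1, and the maternal oocyte genes of -0.25 and -0.26.

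By their list median, though not by summed FPKM, maternal oocyte transcripts leaned the other way, by a similar amount in both melatonin libraries. Of 66 tested genes 41 had a lower mean (background 47.1%), the median was -0.22, and both melatonin libraries lay below both FOC+K libraries in 29 (background 19.8%). The median was -0.25 without melatonin library 1, with 42 of 66 lower, and the CROC+K median against the same controls was 0.12. In limma 7 of them were lower at an unadjusted p under 0.05 (background 2.0%) and 0 were higher; without melatonin library 1 there were 2 of 66 lower (background 2.53%). Zp2, a protein gene of the zona pellucida around the egg, was at 28.9 and 22.3 in FOC+K, with CROC+K at 25.5, 29.6 and 32.3, against 12 and 10.9 with melatonin (-1.08 ± 0.30, and -1.15 without melatonin library 1). Zbed3, whose protein belongs to the subcortical maternal complex, was at 2926 and 3672 against 1565 and 1666 (-1.02 ± 0.33, and -0.98). Accsl was at 348.1 and 362.1 against 211.7 and 218.0 (-0.72 ± 0.26, and -0.70). Of the 8 oocyte markers looked up, Bmp15, Gdf9 and Padi6 were lower in both melatonin libraries than in both FOC+K libraries (background 19.8%). In Zp3, Nlrp5, Ooep, Npm2 and Zar1 the groups overlapped. Bmp15, an oocyte growth factor gene, was at 581.3 and 554.4 against 288.5 and 299.2, and Zp3, of the zona pellucida like Zp2, at 56.3 and 38.8 against 42.6 and 71.7. The list was not uniform, with 25 of 66 genes at a higher mean. Its summed FPKM was 72029 and 73962 in FOC+K, 71592 in melatonin library 1 and 104430 in library 2. In CROC+K it was 73933, 119000 and 119810.

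Cnot6l, a deadenylase gene of the complex that removes maternal mRNA, was at 170.9 and 144.1 in FOC+K, against 50.3 and 67.8 with melatonin (-1.41 ± 0.46, and -1.20 without melatonin library 1), with CROC+K at 192.1, 100.3 and 73.4. Tgfb2, a growth factor gene, was at 192.9 and 136.4 in FOC+K, with CROC+K at 143.3 to 147.7, against 80.2 and 67.4 with melatonin (-1.13 ± 0.29, and -1.25). Slc39a8, a metal ion importer gene, was at 16.4 and 7.79 against 1.73 and 1.78 (-2.17 ± 0.48, and -2.15). Rnf126, a ubiquitin ligase gene, was at 48.6 and 56.2 against 24.1 and 18.0 (-1.29 ± 0.30, and -1.49). Stat4, a transcription factor gene of cytokine signalling, was at 22.03 and 19.8 against 7.45 and 9.56 (-1.21 ± 0.31, and -1.05). Il31, a cytokine gene, was at 8.50 and 11.3 against 2.66 and 1.90 (-1.73 ± 0.39, and -1.90). In these 6 genes both melatonin libraries lay below both FOC+K libraries (background 19.8%). These genes and those named in the next paragraph were picked by small p or by such separation. The separation is therefore no support for a difference. The CROC+K libraries had Il31 at 3.16 to 5.48 and Rnf126 at 32.8 to 41.9, between the other groups.

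Other genes that stood lower in both melatonin libraries were Mansc1 (-1.32 ± 0.32, and -1.5 without melatonin library 1), the orphan nuclear receptor gene Nr2e1 (-1.37 ± 0.38, and -1.48), the F-box gene Fbxo47 (-1.26 ± 0.47, and -1.17), the dynein light chain gene Dnal4 (-1.36 ± 0.40, and -1.62), Pnrc1 (-1.27 ± 0.35, and -1.12) and Ccdc186 (-1.14 ± 0.36, and -1.18). Tubulin genes were among them too. Tuba3a was at 14.5 and 14.0 in FOC+K, against 3.98 and 5.18 with melatonin (-1.46 ± 0.32, and -1.30), Tubal3 at 10.2 and 9.08 against 2.81 and 3.76 (-1.32 ± 0.33, and -1.16), and Tubb2a at 60.04 and 46.7 against 19.5 and 25.5 (-1.21 ± 0.37, and -1.03). Tuba3a has a close copy, Tuba3b, so its level is uncertain. Over the whole tubulin list of 27 genes, 15 had a lower mean and the median was -0.13, and -0.12 without melatonin library 1.

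**Figure D4:**
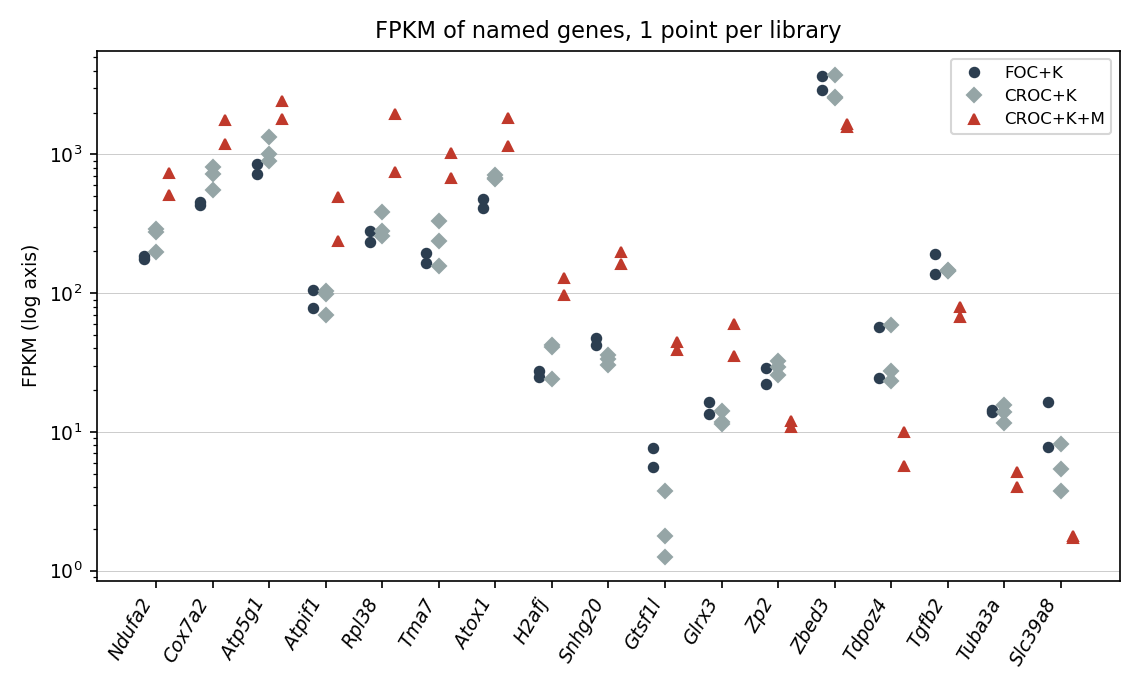
FPKM (log axis) of 17 named genes, 1 point per library: FOC+K (circles, 2), CROC+K (diamonds, 3) and CROC+K+M (triangles, 2). Both melatonin libraries lie above both FOC+K libraries from Ndufa2 to Glrx3 and below them from Zp2 to Slc39a8. The genes were picked by small p or by such separation, so the separation is no support for a difference.

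Genes that the 2-cell embryo switches on for a short time varied as much within FOC+K as between the groups. The list median was -0.027 over 42 genes, with 20 higher and 22 lower, and -0.40 without melatonin library 1. The 2 FOC+K libraries themselves lay 0.61 above and 0.61 below their common mean. Tdpoz4 was at 56.9 and 24.4 in FOC+K, against 10.1 and 5.69 with melatonin (-2.16 ± 0.57, and -2.52 without melatonin library 1), and Tdpoz2 at 17.9 and 7.82 against 3.51 and 2.05 (-1.80 ± 0.72, and -2.08). Both belong to a family with close copies, so these levels are uncertain. Zscan4d, a telomere and genome stability factor gene of this stage, was at 86.9 and 7.56 in FOC+K, against 107.1 and 21.9 with melatonin, so the groups overlapped. Obox6, an oocyte-specific homeobox gene, was at 551.0 and 237.1 against 136.6 and 255.1 (-0.95 ± 0.51, and -0.50), also with overlap.

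Trophectoderm and epithelial genes had a higher mean in 30 of 33 (median 1.24), but this rested on melatonin library 1, where the median was 2.60. Without it the median was -0.20, with 12 of 33 higher. Fabp3, a fatty acid binding protein gene, was at 3.0 and 2.54 in FOC+K, 24404 in melatonin library 1 and 0.32 in library 2. Krt8 and Krt18, which encode keratins of simple epithelia, were at 300.2 and 750.3 in library 1. In library 2 they were at 0.47 and 1.0, below the FOC+K values of 1.60 to 2.94 and of 3.96 to 7.59. The log2 changes were 5.58 ± 3.65 for Fabp3, 2.72 ± 2.01 for Krt8 and 2.57 ± 2.23 for Krt18, and without melatonin library 1 -1.51, -1.12 and -1.71. Among pluripotency genes, Dppa5a was at 620.3 and 443.8 against 19491 and 1198 (3.20 ± 1.10, and 1.19), while Pou5f1, the gene of Oct4, was at 50.5 and 55.2 against 39.3 and 22.6 (-0.80 ± 0.35, and -1.19). The primitive endoderm list had 6 of 9 higher means (median 0.26) and 5 of 9 without melatonin library 1 (median 0.019). With equal FPKM sums its median was -0.20, beside -0.44 for all genes. Fgfr2, a growth factor receptor gene of the primitive endoderm list, was at 1.01 and 1.18 against 16.7 and 3.24 (2.05 ± 0.67, and 1.018), and Gata4, a transcription factor gene, at 9.80 and 11.3 against 2.67 and 8.99 (-0.93 ± 0.51, and -0.21).

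The study's title concerns apoptosis, programmed cell death. The balance is set by Bcl2 family proteins on mitochondria, caspases that carry out death, and inhibitors of both. Pro-apoptotic genes had a higher mean in 26 of 38 (median 0.26) and in 20 of 38 without melatonin library 1 (median 0.084), and the median was -0.19 with equal FPKM sums. Anti-apoptotic genes had a higher mean in 19 of 30 (median 0.17) and in 15 of 30 without it (median -0.022), with -0.42 under equal FPKM sums and -0.17 after quantile normalization. At an unadjusted p under 0.05 stood 1 pro-apoptotic gene, Cycs, given above, of 38, and 2 anti-apoptotic genes of 30, beside 6.45% of all genes. Those were Dad1, at 199.8 and 338.5 in FOC+K against 1172 and 421.9 (1.43 ± 0.51, and 0.70), and Naip1, at 1.77 and 2.06 against 0.30 and 0.81 (-0.93 ± 0.37, and -0.69). Naip1 has near-identical copies and is uncertain.

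Of the individual regulators, Trp53, the gene of p53, was at 8.90 and 9.52 in FOC+K, against 11.1 and 7.94 with melatonin, against 14.2, 17.1 and 21.6 in CROC+K. Its change against FOC+K was 0.03 ± 0.34, and -0.19 without melatonin library 1. Bax, a pore-forming killer protein gene, was at 21.0 and 13.3 against 103.4 and 11.8, so the 2 melatonin libraries fell on either side of FOC+K (1.04 ± 0.87, and -0.47). Diablo, an antagonist of apoptosis inhibitors, was at 76.7 and 76.9 in FOC+K, against 117.2 and 117.5 with melatonin (0.61 ± 0.26, and 0.61). CROC+K held Diablo at 100.8, 126.3 and 121.6, on both sides of the melatonin libraries. Pmaip1, the gene of Noxa, was at 0.48 and 1.90 in FOC+K, against 3.54 and 1.49 with melatonin (0.70 ± 0.51, and 0.27), with overlap, against 3.67 to 6.66 in CROC+K. Pdcd5, a programmed cell death gene, was at 58.7 and 53.2 against 529.5 and 68.9 (1.76 ± 0.83, and 0.30).

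On the protective side, Bcl2l10, the main Bcl2 relative of the oocyte, was at 1241 and 1907 in FOC+K, against 1839 and 1623 with melatonin (0.17 ± 0.32, and 0.08 without melatonin library 1). Bcl2l1, the gene of Bcl-xL, was at 17.0 and 16.9 against 11.2 and 15.7 (-0.33 ± 0.39, and -0.11). Birc5, the gene of survivin, was at 809.6 and 898.1 against 1200 and 1295 (0.55 ± 0.29, and 0.60), a direction that turned with equal FPKM sums (-0.05) and after quantile normalization (-0.18). Bcl2l12 was at 4.21 and 2.87 against 13.2 and 7.28 (1.27 ± 0.56, and 0.88). The p53 target list had 19 of 31 higher means, with a median of 0.12, and of -0.057 without melatonin library 1. With equal FPKM sums the median was -0.39, beside -0.44 for all genes. At an unadjusted p under 0.05 in limma stood 0 of 31 (background 6.45%). Gadd45g, a stress response gene, was at 4.71 and 23.8 against 34.0 and 31.2 (1.5 ± 0.88, and 1.43), where the FOC+K libraries were far apart.

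Antioxidant genes had a higher mean in 45 of 55 (median 0.48), and without melatonin library 1 in 33 of 55 (median 0.15). With equal FPKM sums the median was -0.035, which lay 0.40 above that of all genes. In 15 of 55 both melatonin libraries lay above both FOC+K libraries, beside 21.3% of all genes. Glrx3, a glutaredoxin gene, was at 16.5 and 13.4 in FOC+K, with CROC+K at 11.7, 14.2 and 11.3, against 59.9 and 35.4 with melatonin (1.57 ± 0.35, and 1.19 without melatonin library 1). Park7, the gene of the redox sensor DJ-1, was at 47.3 and 61.4 against 299.1 and 97.8 (1.65 ± 0.52, and 0.85). The classical enzymes were less uniform. Sod1, the cytosolic superoxide dismutase gene, was at 82.5 and 106.9 against 98.2 and 85.5 (-0.03 ± 0.27, and -0.13), inside the FOC+K range. Sod2, the mitochondrial one, was at 54.6 and 47.4 against 167.8 and 58.5 (0.95 ± 0.52, and 0.20), Gpx4, a lipid peroxide reductase gene, at 237.3 and 162.4 against 792.4 and 184.1 (0.96 ± 0.65, and -0.09), and the catalase gene Cat at 0.71 and 2.57 against 7.23 and 2.14 (1.04 ± 0.72, and 0.35). The melatonin receptor genes Mtnr1a and Mtnr1b are listed at 0 in all 7 libraries.

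Heat shock and chaperone genes had a median of 0.47 (35 of 46 higher), and of 0.019 without melatonin library 1. With equal FPKM sums it was -0.087, which lay 0.35 above that of all genes. Cct7, a chaperonin subunit gene, was at 24.6 and 26.7 against 77.3 and 40.0 (1.09 ± 0.37, and 0.62), and Hspe1, a mitochondrial chaperonin gene, at 350.0 and 395.0 against 887.9 and 493.4 (0.83 ± 0.36, and 0.41). Hspbp1, a co-chaperone gene, was at 11.1 and 6.2 in FOC+K, with CROC+K at 2.85, 1.12 and 1.37, against 18.4 and 16.1 with melatonin (0.96 ± 0.44, and 0.88). Groups were apart for 16 higher and 5 lower heat shock genes, and for 12 higher and 15 lower of 54 DNA repair genes, beside 21.3% and 19.8% of all genes. The unfolded protein response list had a median of 0.044, of -0.061 without melatonin library 1 and of -0.46 with equal FPKM sums, with 0 of 35 genes at an unadjusted p under 0.05 (background 6.45%). The DNA repair list had a median of -0.044, of 0.042 without melatonin library 1 and of -0.54 with equal FPKM sums, beside -0.44 for all genes. Of its genes 2 of 54 stood at that p, both higher (background 4.45%). Rpa3, a subunit gene of the single-strand binding protein RPA, was 1 of them, at 213.5 and 210.2 against 432.5 and 417.6 (1.0 ± 0.33, and 0.98).

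No member of the lists of H3K9 methyltransferases (17 tested), H3K9 demethylases (13), DNA methylation (17) or histone acetylation (28) had an unadjusted p under 0.05 in limma (background 6.45%), nor did any of 9 other histone demethylase genes, of which 8 had a lower mean (6 without melatonin library 1). In the order given, the 5 medians were -0.056, -0.14, -0.17, -0.0028 and -0.18, and without melatonin library 1 they were 0.041, 0.018, -0.13, 0.038 and -0.15. With equal FPKM sums they lay between -0.66 and -0.47, beside -0.44 for all genes. The DNA methylation list had 1 lower gene at an unadjusted p under 0.05 once melatonin library 1 was left out, Zfp57, beside 2.53% of all genes. Kdm3a, an H3K9 demethylase gene, was at 31.5 and 25.3 in FOC+K against 13.7 and 20.5 (-0.72 ± 0.33, and -0.44 without melatonin library 1), and Zfp57, which guards imprints, at 65.0 and 73.7 against 51.3 and 39.6 (-0.61 ± 0.29, and -0.79). Among the remaining lists, Map1lc3b, the autophagosome marker gene LC3B, was at 972.3 and 594.5 against 1797 and 1448 (1.08 ± 0.43, and 0.93), and Ctsa, a lysosomal carboxypeptidase gene, at 16.1 and 20.5 against 64.4 and 44.4 (1.51 ± 0.55, and 1.24). The securin gene Pttg1 was at 2914 and 2918 in FOC+K, against 7874 and 8155 with melatonin (1.46 ± 0.67, and 1.48). CROC+K spanned that whole range for Pttg1, with 2406, 8851 and 10638. Anapc10, a subunit gene of the complex that degrades securin, was at 54.6 and 62.8 against 213.9 and 102.0 (1.32 ± 0.39, and 0.79). H2-K1, an MHC class I gene, was at 3.90 and 5.43 against 12 and 11 (1.15 ± 0.37, and 1.09). The lipid list had 29 of 36 higher means (median 0.44), and 18 of 36 without melatonin library 1 (median -0.020). Under equal FPKM sums its median was -0.042, which lay 0.39 above that of all genes. The cholesterol list had 20 of 27 (median 0.26), and 16 of 27 without melatonin library 1 (median 0.20), with -0.28 under equal FPKM sums. Pmvk of cholesterol synthesis was at 2.65 and 1.19 against 24.8 and 6.52 (2.30 ± 0.73, and 1.41), Npc2, a lysosomal sterol carrier gene, at 37.2 and 38.0 against 86.0 and 53.2 (0.83 ± 0.33, and 0.49), and Plin3, a lipid droplet coat gene, at 4.47 and 3.42 against 19.2 and 8.08 (1.46 ± 0.47, and 0.88). Sc5d, a sterol desaturase gene of cholesterol synthesis, was lower in both melatonin libraries, at 15.8 and 22.4 against 11.8 and 6.32 (-1.04 ± 0.49, and -1.44).

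The cumulus cell list split into 4 higher and 5 lower means (median -0.087, and -0.36 without melatonin library 1). Nppc, a peptide gene, was at 3.28 and 11.3 in FOC+K against 1.31 and 0.70 (-1.87 ± 0.70, and -2.09), and Gja1, a gap junction gene, at 3.53 and 2.80 against 16.5 and 4.38 (1.23 ± 0.72, and 0.37). Rn45s, the ribosomal RNA precursor, which was kept out of the tests, was at 1183 and 1047 in FOC+K, with CROC+K at 2114, 265.7 and 237.2, against 224.1 and 175.4 with melatonin. Its level moves with the groups compared here, and its part in the other differences was not tested.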

How the data were processed

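RNA of pooled SCNT embryos with an integrity number above 7.0 was, per the labels' protocols, reverse transcribed by SMARTer Ultra Low Input chemistry, and ScriptSeq v2 was used for the libraries. The authors deposited FPKM values for 24319 genes and 7 libraries. Cuffnorm, Cufflinks (2.2.1), STAR (2.5.2b), R (3.3.2) and the build mm9 appear in the submitters' processing notes. Which annotation was used, and how libraries were scaled to each other, is not given in the sources used here. FPKM divides by transcript length, so errors in fragment size weigh most on short transcripts, and close copies share fragments by a model.

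Values were used as deposited, as log2(FPKM + 1), which understates the changes of low genes. Genes with an FPKM of at least 1 in 2 or more libraries were tested. This gave 12273 genes once 1294 rows of small RNAs and of the rRNA precursor had been set aside. limma 3.58.1 in R 4.3.3, with an intensity trend, fitted 3 groups over 7 libraries; p-values are two-sided, adjusted by Benjamini-Hochberg over all genes. Leaving out melatonin library 1 assumes that library 2 varies like the other groups. On simulated data the fit recovered 0 of 50 genes changed 2-fold, 18 of 50 changed 4-fold and 34 of 50 changed 8-fold. At 32-fold it recovered 41 of 50, and there were 4 false calls. An absence of genes past the threshold therefore does not exclude changes of such sizes.

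The 44 gene lists, the members and the rule for named genes were chosen with earlier results of these data known. The rule takes 8 genes per direction with the smallest p, 8 per direction held by both melatonin libraries, the 3 members of each list with the smallest p, and a fixed set; clone names were left out. Lists are described by counts and medians with no test. Bmp15, Zp3, Zscan4d, other markers and genes at the ends of a list's range were named outside that rule, after their values were seen. Transcript lengths are medians over GENCODE M21 transcripts, matched by symbol for 12166 genes. Promoters matched 9891 genes, with the first start listed. Alternatives covered the pseudocount, the filter, scaling, left-out libraries, array weights, robust moderation, a replicate block and transcript length. Python 3.11.15 was used with pandas 2.3.3 and matplotlib 3.10.9.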

Additional observations from a re-analysis of the deposited data

Results flagged for a closer look

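Small RNA rows were kept out of the tests because FPKM is unreliable for RNAs shorter than a sequenced fragment. Of the 22 such rows that passed the expression filter, Snora47, a small nucleolar RNA, is listed at 0 in both FOC+K libraries and at an FPKM of 128.1 and 129.7 in melatonin libraries 1 and 2. It drew attention as a signal outside the tested genes and above the fresh-oocyte libraries. When these rows were kept in the fit it was the only gene past the threshold (adjusted p = 0.0192 in limma). It reached the expression filter only through libraries outside FOC+K, and the 0 values in FOC+K add no spread. This p is therefore no support for a difference. CROC+K held it too, at 68.3, 48.1 and 158.6.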

How the results depend on the processing

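No gene passed the adjusted threshold under 20 of the 22 settings run, the reported one included; 1 gene, Snora47, passed with small RNA rows kept, and 546 passed without melatonin library 2, where melatonin library 1 alone stands for its group, so that leaving out 1 library gave 0 to 546. An unadjusted p under 0.05, reached by 792 genes as reported, was reached by 1207 with no filter on low values, 1374 with equal FPKM sums and by 223 to 2054 with 1 library left out (without FOC+K replicate 1: 223, without FOC+K replicate 2: 310). The number of genes whose libraries did not overlap was 5034 to 10190 with 1 library left out, where a group of 1 makes separation easier.

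With 1 library left out the medians were 0.92 to 3.07 for complex I, 0.71 to 2.78 for complexes II to IV, 0.56 to 2.76 for ATP synthase, 0.36 to 1.74 for cytosolic ribosomal proteins, -0.29 to -0.12 for maternal oocyte transcripts and -0.20 to 2.60 for trophectoderm genes. Without melatonin library 1 and with the length trend removed they were 0.69, 0.49, 0.41, 0.23, -0.28 and -0.16 in that order, and with equal FPKM sums 0.57, 0.36, 0.21, 0.012, -0.60 and -0.51. All genes had medians of 0.0082 and -0.27 in those settings. For maternal oocyte transcripts equal FPKM sums gave -0.79 and quantile normalization -0.61 with all libraries, beside -0.44 and -0.081 for all genes. The cause was not tested.

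The 2043 pairs of a named gene and a setting include settings that cannot alter a gene's change. These are the filters, the compared libraries alone, the replicate block and leaving out a CROC+K library, so the total says little of steadiness. Of all pairs, 39 had another direction. With equal FPKM sums these were Kdm4a (-0.48), Trp53 (-0.52), Bcl2l10 (-0.43) and Birc5 (-0.049), and after quantile normalization the same 4 (-0.63, -0.10, -0.51 and -0.18). With the length trend removed Sod1 was at 0.036. With 1 library left out the ranges were -0.90 to 1.12 for Kdm4a, -1.51 to 12.7 for Fabp3, -1.12 to 6.56 for Krt8, -1.71 to 6.85 for Krt18, -0.19 to 0.24 for Trp53, -0.47 to 2.56 for Bax, -0.14 to 0.48 for Bcl2l10, -0.22 to 0.15 for Sod1 and -0.093 to 2.01 for Gpx4. Without melatonin library 1 and with the length trend removed, Kdm4a was at -0.86, Fabp3 at -1.57, Krt8 at -1.05, Krt18 at -1.65, Trp53 at -0.11, Bax at -0.59 and Gpx4 at -0.18. With equal FPKM sums and without that library, Aldoa was at -0.056, Pdcd5 at -0.050, Kdm4a at -1.25, Fabp3 at -1.77, Krt8 at -1.36, Krt18 at -2.0, Trp53 at -0.51, Bax at -0.81, Bcl2l10 at -0.28, Sod2 at -0.15 and Gpx4 at -0.44.

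The labels number the libraries of each group from 1, without saying that a number marks a shared batch. Deviations of same-numbered libraries from their group means correlated at -0.005 between FOC+K and CROC+K+M. With 2 libraries in each group, differently numbered pairs give 0.005 by construction and add no check. Between FOC+K and CROC+K the correlation was -0.458 for number 1 and -0.273 for number 2. Between CROC+K and CROC+K+M it was -0.026 and 0.029. The fit with a replicate block gave 542 genes at an unadjusted p under 0.05 and 0 past the threshold (smallest adjusted p = 0.914), against 792 and 0. Depth limits what low genes can show.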

Other observations

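Hba-a1, an alpha globin gene looked up as a blood marker, was at an FPKM of 13.1 and 14.4 in FOC+K, 3.32 in melatonin library 1 and 34.4 in library 2, while Ptprc, Hbb-b1 and Alas2 are listed at 0 in all libraries. Apoa1, an apolipoprotein gene, was at 0 and 0.84 in FOC+K and at 121.5 and 2.62 in melatonin libraries 1 and 2. Apoa2 was at 5.52 and 2.91 against 7.20 and 10.7, with CROC+K reaching 17.2.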
